A study of Mus musculus with 18 samples.

Results

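The genes described here are 45 genes of homologous recombination and Fanconi repair, chosen by symbol from what their products do. All 45 listed symbols were found among the 16314 symbols of the count table, and all 45 were among the 12021 genes that passed the filter on low counts. Their RNA was followed by bulk RNA-seq in bone marrow-derived macrophages (BMDMs), which are marrow cells of C57BL/6J mice differentiated in culture with the growth factor M-CSF. The cells came from mice with both Prep alleles knocked out (Prep-/-) and from heterozygous littermates (Prep+/-), so that the controls themselves carried 1 null allele and no wild-type group was analysed here. Prep encodes prolyl endopeptidase, a serine peptidase that cleaves after proline. Cells of each genotype were left unstimulated (M0), were given 50 ng/ml lipopolysaccharide (LPS) for 24 h (M1), or were given 20 ng/ml interleukin-4 with 20 ng/ml interleukin-13 for 24 h (M2). This gave 6 groups of 3 libraries, which the study describes as biological replicates. The knockout was global rather than limited to macrophages.

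Homologous recombination repairs a DNA break by copying the sister chromatid. The broken ends are cut back to single strands, the BRCA proteins prepare these strands to invade the sister, and the joined molecules are then dissolved or cut apart. The Fanconi pathway unhooks crosslinks between the DNA strands: a core ubiquitin ligase marks the FANCD2 and FANCI proteins, and recombination finishes the repair. Both pathways work mainly in S and G2 phase, and many of their genes are transcribed most in dividing cells. In bulk cultures such as these, fewer cells of a type and less RNA per cell cannot be told apart.

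The 18 libraries held 19068237 to 22598279 counts each. Normalized counts are given below, meaning counts scaled by library total and trimmed mean of M-values (TMM) to a common depth. Prep itself lay between 551 and 900 normalized counts in the 9 Prep+/- libraries and between 31.2 and 68.1 in the 9 Prep-/- libraries, with no overlap in any state. Summed over 8 macrophage markers, CPM (counts scaled to the same library total throughout) ranged from 10025 to 48169, all 8 being present in every group. Sums over erythroid, T and NK cell, and mast cell and basophil markers did not exceed 1.40 CPM in any library. Replicates differed beyond counting noise in all 6 groups, and replicate 3 of Prep-/- M0 and replicate 3 of Prep-/- M2 differed most from the other replicates of their groups.

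Most of the repair genes were lower in Prep-/- than in Prep+/- BMDMs in the M0 state. Of the 45 genes, 34 were lower and 0 were higher, where a call needed an adjusted p under 0.05 with more than a 1.5-fold change. Over all 12021 genes tested, 17.2% were called lower and 15.4% higher in this comparison. The median log2 fold change was -1.31 over the 45 genes and 0.02 over all genes. At an unadjusted p under 0.05, 40 of the 45 genes differed. DESeq2 also called 34 lower and 0 higher, against 2089 lower and 1872 higher over all 12021 genes tested. In 37 of the 45 genes every Prep-/- library lay below every Prep+/- library, against 27.1% of all genes tested. In M2, 27 genes were lower and 0 higher, against 9.82% lower and 6.37% higher over all genes, with median log2 fold changes of -1.04 and 0.03. There 33 genes differed at an unadjusted p under 0.05. DESeq2 called 26 lower and 0 higher, against 1205 lower and 855 higher over all genes. In M1, 13 genes were lower and 3 higher, against 10.2% lower and 12.3% higher over all genes, with medians of -0.33 and 0.04. There 25 genes differed at an unadjusted p under 0.05, and DESeq2 called the same 13 lower with Bard1, Fancb, Rad54b and Ube2t added. Over all genes DESeq2 called 1405 lower and 1400 higher in M1. At an adjusted p under 0.05 without the fold criterion, 2372 of all genes were higher and 1998 lower in M1 (M0: 2922 and 2904, M2: 1394 and 1573). The all-gene share at an unadjusted p under 0.05, which cannot be smaller, was not computed. The unadjusted counts are therefore not read as particular to these genes. Without replicate 3 of Prep-/- M0, 33 genes were lower and 1 higher in M0, and without replicate 3 of Prep-/- M2, 29 were lower and 0 higher in M2.

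**Figure D1:**
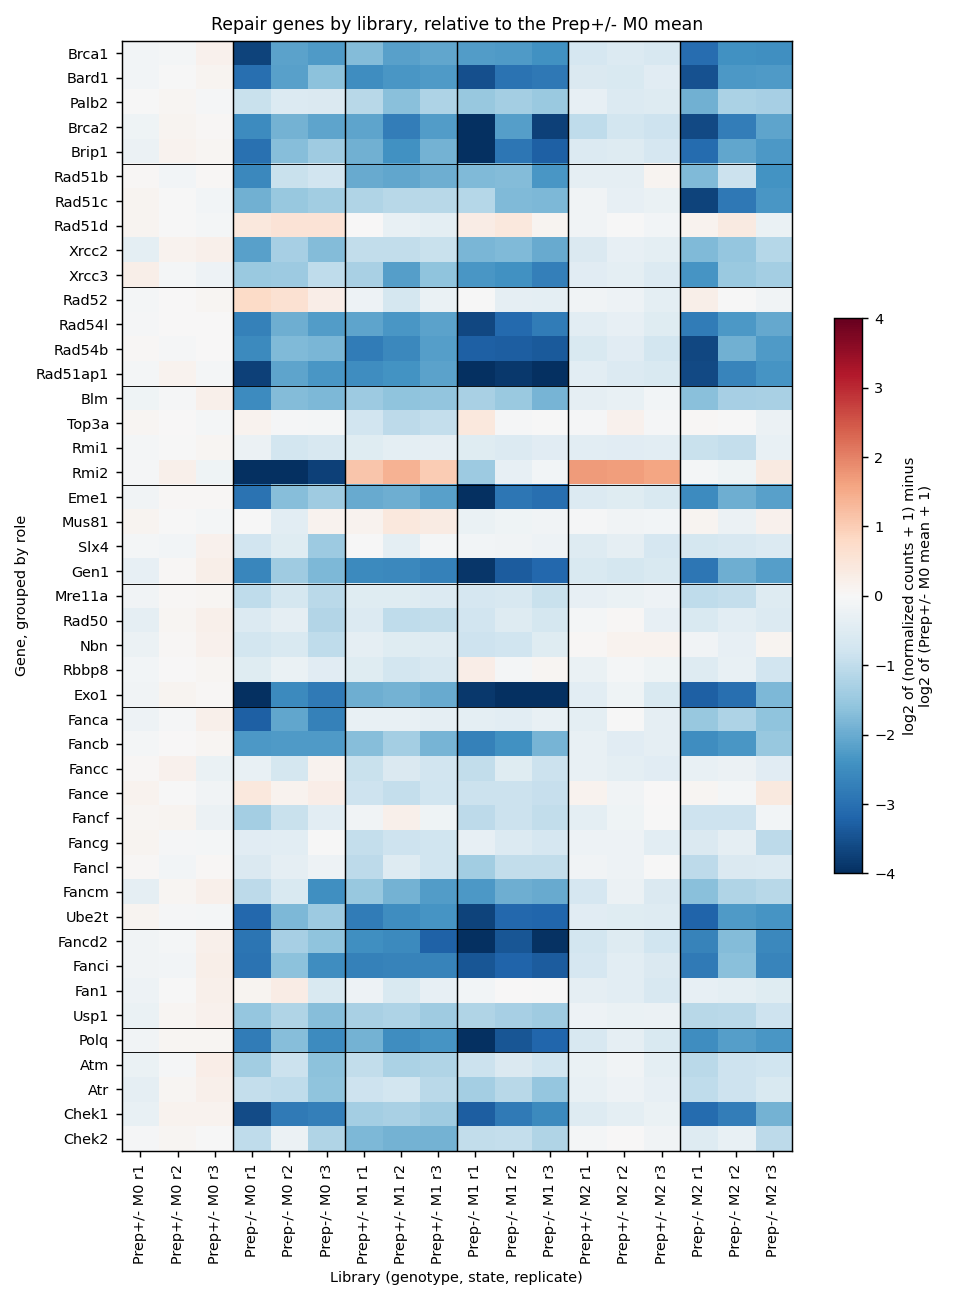
Each row is 1 of the 45 repair genes, grouped by role, and each column is 1 of the 18 libraries. The colour gives log2 of (normalized counts + 1) minus log2 of (the Prep+/- M0 mean + 1), with colours saturating at 4 in either direction. The Prep-/- columns in M0, M1 and M2 and the Prep+/- M1 columns are mostly blue (lower). The row of Rmi2 turns from blue in Prep-/- M0 to red in Prep+/- M1 and M2.

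The RNA levels of these genes differed among themselves in the controls. Expressed per kilobase of the canonical transcript, the level in Prep+/- M0 was 25.4 ± 3.66 CPM per kb (SD, n = 3) for Usp1, the protease that removes ubiquitin from FANCD2 and FANCI, the highest of the 45. It was 15.6 ± 0.646 CPM per kb for the checkpoint kinase gene Chek2 and 14.8 ± 1.37 for Rad51ap1, whose product promotes strand invasion. At the low end, Rmi2, encoding the smallest subunit of the complex that dissolves joined DNA molecules, stood at 0.972 ± 0.132 CPM per kb. Brca2 alone was lower, at 0.955 ± 0.0909 CPM per kb. In Prep-/- M0 the same measure was 9.19 ± 1.65 for Usp1, 2.48 ± 1.21 for Rad51ap1 and 0.0331 ± 0.0310 for Rmi2.

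The BRCA group, which prepares single-stranded DNA for strand invasion, was lower throughout in Prep-/- M0: Brca1, Bard1, Palb2, Brca2 and Brip1 were all called, 5 of 5. Brca1, which encodes the ubiquitin ligase that starts this step, had 913, 936 and 1103 normalized counts in the Prep+/- M0 libraries. The Prep-/- M0 libraries had 74.3, 224 and 202. The groups did not overlap, replicate 1 of Prep-/- being the lowest, and the log2 fold change was -2.56 ± 0.28 (SE, adjusted p = 3.36e-06 by edgeR). Palb2, which links BRCA1 to BRCA2, changed less, from 213, 226 and 209 to 116, 149 and 144 normalized counts. Its log2 fold change was -0.66 ± 0.18 (adjusted p = 0.00602 by edgeR), and its call was lost in 3 of 16 alternative settings. All 5 were lower in M2 as well, where Brca1 stood at 621, 676 and 635 in Prep+/- and at 117, 183 and 179 in Prep-/-.

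Rad51b, Rad51c, Rad51d, Xrcc2 and Xrcc3 encode 5 related proteins that assist strand invasion. Rad51b, Rad51c, Xrcc2 and Xrcc3 were lower in Prep-/- M0 and again in M2. Rad51c had 148, 134 and 126 normalized counts in Prep+/- M0 against 35.1, 46.9 and 51.8 in Prep-/- M0, a log2 fold change of -1.60 ± 0.25 (adjusted p = 7.76e-05 by edgeR). In M2 it had 124, 109 and 113 against 9.58, 18 and 26.4. That was the largest M2 difference among the 45 genes, at -2.67 ± 0.28 (adjusted p = 1.07e-05 by edgeR), and the groups were far apart. Rad51d, the gene of this group with the most reads, was not called in any state. It had 324, 294 and 283 normalized counts in Prep+/- M0 against 401, 440 and 444 in Prep-/- M0, where all Prep-/- libraries lay above and the log2 fold change was 0.51 ± 0.15 (adjusted p = 0.00892 by edgeR), under the fold criterion.

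Among the 4 genes of accessory factors and strand annealing, Rad54l, Rad54b and Rad51ap1 were lower in Prep-/- M0 and in M2, and Rad52, an annealing factor, was not called in either. Rad54l, encoding the motor protein that drives strand exchange, went from 959, 990 and 997 normalized counts to 151, 252 and 206 in M0. Its log2 fold change of -2.27 ± 0.21 (adjusted p = 9.57e-07 by edgeR) came with the groups far apart. Rad51ap1 went from 845, 980 and 832 to 66.2, 203 and 177 in M0, and from 657, 601 and 583 to 72.4, 141 and 170 in M2. In each state the groups were separated, with replicate 1 of Prep-/- the lowest library, and the log2 fold changes were -2.57 ± 0.32 and -2.26 ± 0.32 (adjusted p = 1.16e-05 and 1.16e-04 by edgeR).

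The complex that dissolves joined DNA molecules holds a helicase (BLM), a topoisomerase (TOP3A) and the proteins RMI1 and RMI2, and its genes behaved unequally. Rmi2 showed the largest difference of all 45 genes: 75.2, 88.5 and 67.9 normalized counts in Prep+/- M0 against 3.01, 0 and 4.88 in Prep-/- M0. The latter rest on 3, 0 and 5 reads, so that the log2 fold change of -4.85 ± 0.49 (adjusted p = 1.61e-06 by edgeR) has little precision in size, although no library overlapped. Blm went from 334, 357 and 426 to 64.2, 112 and 106, with a log2 fold change of -1.98 ± 0.20 (adjusted p = 1.64e-06 by edgeR). Top3a was not called in this state. It had 535, 514 and 477 normalized counts in Prep+/- M0 against 563, 496 and 484 in Prep-/- M0, a log2 fold change of 0.02 ± 0.14, and Rmi1 was not called in any state.

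Of the 4 genes for nucleases that cut joined molecules apart and their scaffold, Eme1, Gen1 and Slx4 were lower in Prep-/- M0, and Mus81 was not called. Slx4, encoding the scaffold, had 354, 344 and 419 normalized counts in Prep+/- M0 against 219, 263 and 135 in Prep-/- M0, a log2 fold change of -0.86 ± 0.18 (adjusted p = 0.00114 by edgeR). In M2 its libraries overlapped, at 261, 289 and 234 against 227, 241 and 256. Gen1, encoding a nuclease that cuts Holliday junctions, fell in both states, from 321, 423 and 478 to 66.2, 153 and 116 in M0, and from 269, 251 and 265 to 54.3, 104 and 88.3 in M2.

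The 5 genes for cutting back the ends included the steepest loss after Rmi2. Exo1, encoding a nuclease that extends the cut-back strand, had 258, 308 and 294 normalized counts in Prep+/- M0 against 12, 47.8 and 39.1 in Prep-/- M0, a log2 fold change of -3.10 ± 0.37 (adjusted p = 8.38e-06 by edgeR). In M2 it had 213, 253 and 189 against 28.7, 34.9 and 82.2, at -2.16 ± 0.36 (adjusted p = 3.70e-04 by edgeR). Exo1 was thus separated by genotype in both states, with replicate 3 the highest Prep-/- library in M2. Mre11a, Rad50 and Nbn, whose products form the complex that senses broken ends, were each called lower in M0 with log2 fold changes between -0.93 and -0.66, and none of them was called in M2. Rbbp8, encoding the protein CtIP that starts the cutting, was not called in M0 (696, 755 and 780 against 530, 618 and 542 normalized counts, a log2 fold change of -0.40 ± 0.12, adjusted p = 0.0140, under the fold criterion by edgeR) or in M2.

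The Fanconi core complex and its ubiquitin-conjugating enzyme split by gene. Fanca, Fancb, Fancf, Fancm and Ube2t were lower in Prep-/- M0, 5 of 9, and Fancc, Fance, Fancg and Fancl were not called. Fanca, a scaffold subunit of the core, had 365, 403 and 486 normalized counts in Prep+/- M0 against 42.2, 98.3 and 63.5 in Prep-/- M0. The log2 fold change was -2.61 ± 0.22, and its adjusted p of 4.71e-07 (edgeR) was the smallest of the 45 genes in this comparison. Fancg, a partner of FANCA in the same complex, had 755, 690 and 676 against 513, 533 and 703. Its libraries overlapped, and the log2 fold change was -0.28 ± 0.16 (adjusted p = 0.158 by edgeR). Ube2t, encoding the enzyme that hands ubiquitin to the core, went from 542, 489 and 473 to 56.2, 145 and 181 in M0 and from 369, 358 and 348 to 53.2, 103 and 97.4 in M2, separated in both states.

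In the ID complex, the target of the Fanconi core, Fancd2 and Fanci were lower in Prep-/- cells, as was Usp1, and Fan1, a nuclease recruited to the complex, was not called in any state. Fancd2 had 504, 518 and 636 normalized counts in Prep+/- M0 against 71.3, 221 and 179 in Prep-/- M0. Fanci had 437, 451 and 566 against 62.2, 155 and 85.0. Neither gene's groups overlapped, replicate 2 being the highest Prep-/- library for both, and the log2 fold changes were -1.81 ± 0.32 and -2.26 ± 0.29 (adjusted p = 2.64e-04 and 1.53e-05 by edgeR). Usp1 went from 1686, 2099 and 2244 to 685, 873 and 622 in M0, a log2 fold change of -1.47 ± 0.13 (adjusted p = 7.48e-07 by edgeR). In M2 it went from 1732, 1684 and 1708 to 926, 959 and 1122, at -0.77 ± 0.13 (adjusted p = 4.31e-04 by edgeR).

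Polq, encoding a polymerase that joins ends at short shared sequences as an alternative to recombination, had 281, 323 and 323 normalized counts in Prep+/- M0 against 43.2, 94.8 and 53.7 in Prep-/- M0. The log2 fold change was -2.27 ± 0.28 in M0 and -1.81 ± 0.28 in M2 (adjusted p = 1.12e-05 and 2.31e-04 by edgeR). All 4 checkpoint kinase genes, which relay damage signals to the cell cycle, were lower in Prep-/- M0. Chek1, whose kinase acts at stalled replication forks, had 225, 303 and 303 against 22.1, 38.1 and 41.0 normalized counts, a log2 fold change of -3.03 ± 0.28 (adjusted p = 1.09e-06 by edgeR). In M2 Chek1 had 193, 213 and 228 against 31.9, 40.2 and 74.1, again without overlap, at -2.11 ± 0.27 (adjusted p = 5.69e-05 by edgeR). Atm, whose kinase answers to DNA breaks, changed less, from 456, 534 and 666 to 211, 303 and 177 in M0. Chek2 went from 742, 802 and 754 to 375, 649 and 330, with replicate 2 of Prep-/- close to the controls, and its log2 fold change was -0.76 ± 0.21 (adjusted p = 0.00619 by edgeR).

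**Figure D2:**
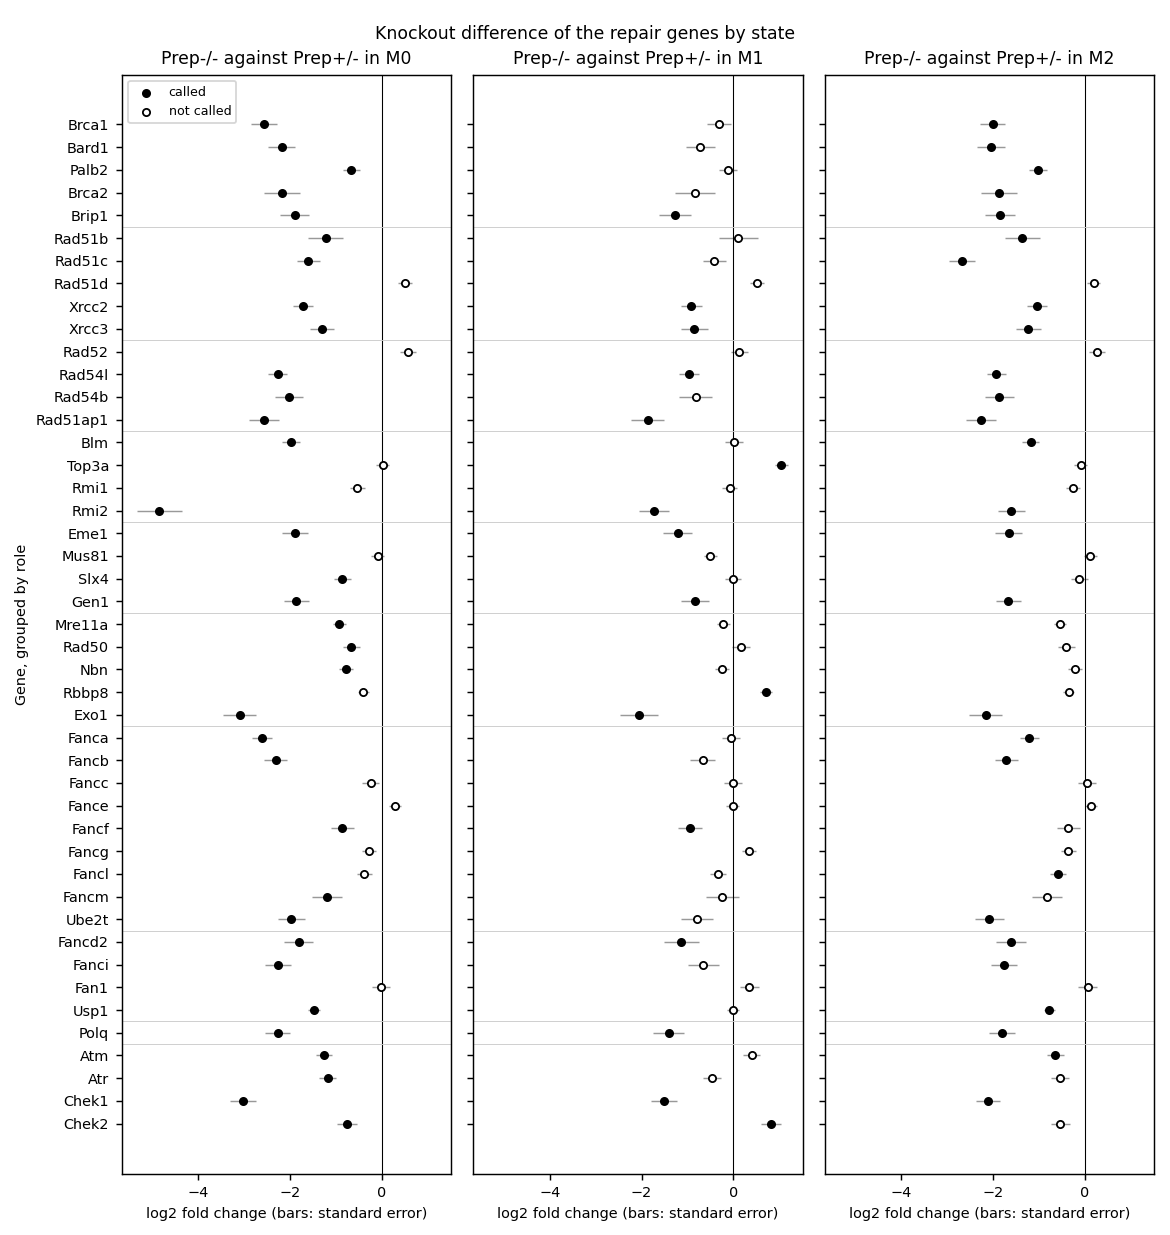
Points give the log2 fold change of Prep-/- against Prep+/- for each of the 45 genes (rows, grouped by role) in M0, M1 and M2, and bars give the standard error. Filled points were called. In M0 34 and in M2 27 filled points lie left of 0, and in M1 13 lie left and 3 right of it.

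After LPS fewer of these genes were called. The 13 lower in Prep-/- M1 were Brip1, Xrcc2, Xrcc3, Rad54l, Rad51ap1, Rmi2, Eme1, Gen1, Exo1, Fancf, Fancd2, Polq and Chek1, with log2 fold changes from -2.05 to -0.83. Exo1 had 72.9, 77.3 and 70.5 normalized counts in Prep+/- M1 and 18.7, 17.1 and 17.2 in Prep-/- M1, the largest loss of this state at -2.05 ± 0.42 (adjusted p = 0.00161 by edgeR). Rad51ap1 had 157, 167 and 198 against 33.0, 59.8 and 50.6, and Chek1 had 107, 112 and 103 against 27.5, 38.4 and 46.3. Neither overlapped, and their log2 fold changes were -1.86 ± 0.36 and -1.51 ± 0.29 (adjusted p = 0.00114 and 0.00102 by edgeR). Brca1 overlapped in no library either, yet its difference was small, 294, 217 and 230 against 209, 205 and 184, and it was not called (log2 fold change -0.31 ± 0.27, adjusted p = 0.392 by edgeR). Leaving out replicate 1 of Prep-/- M1 reduced the 13 to 8. The calls of Gen1, Xrcc3 and Fancd2 in M1 were lost in 8, 7 and 6 of 16 alternative settings.

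The 3 genes higher in Prep-/- M1 were Top3a, Chek2 and Rbbp8. Top3a had 302, 247 and 262 normalized counts in Prep+/- M1 and 689, 488 and 499 in Prep-/- M1, a log2 fold change of 1.05 ± 0.14 (adjusted p = 1.05e-04 by edgeR). Chek2 had 218, 205 and 206 against 387, 391 and 330, at 0.82 ± 0.22 (adjusted p = 0.00861 by edgeR). Rbbp8 had 527, 444 and 477 against 897, 703 and 792, at 0.72 ± 0.13 (adjusted p = 5.86e-04 by edgeR). All 3 were separated from the Prep+/- libraries, and in M0 and M2 none of the 3 was called higher.

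Over the 3 states, 12 genes were lower in each of them: Brip1, Xrcc2, Xrcc3, Rad54l, Rad51ap1, Rmi2, Eme1, Gen1, Exo1, Fancd2, Polq and Chek1. Of all genes tested, 2.70% had this pattern. Another 14 were lower in M0 and M2 and not called in M1, against 4.25% of all genes tested, among them Brca1, Rad51c, Blm, Fanca, Ube2t, Fanci, Usp1 and Atm. There were 6 genes lower in M0 alone (Slx4, Mre11a, Rad50, Nbn, Fancm and Atr, against 6.78% of all genes tested), 1 lower in M0 and M1 (Fancf) and 1 lower in M2 alone (Fancl, whose call was lost in 5 of 16 alternative settings). The M0 calls of Rad50, Palb2 and Fancf were lost in 4, 3 and 3 of 16 alternative settings, and those of Fancm and Rad51b in 2 each. Chek2 was lower in M0 and higher in M1, and Top3a and Rbbp8 were higher in M1 alone. The 8 genes without a call in any state were Rad51d, Rad52, Rmi1, Mus81, Fancc, Fance, Fancg and Fan1. These counts compare calls, and the difference between states was tested for each gene as follows.

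The knockout effect in M1 minus that in M0 was tested as an interaction, which is the same quantity as the LPS response in Prep-/- minus that in Prep+/-. It was above 0 for 18 of the 45 genes and below 0 for 0, at an adjusted p under 0.05 with no fold criterion. Over all genes tested, 13.7% were above and 10.9% below 0. The median over the 45 genes was 0.85 on the log2 scale, against 0.04 over all genes. At an unadjusted p under 0.05, 27 of the 45 differed, and the share of all genes was not computed. DESeq2 called 21 above and 0 below, against 1779 above and 1681 below over all genes. Without replicate 3 of Prep-/- M0 it was 19 above and 0 below. Fanca had the smallest adjusted p, with an interaction of 2.56 ± 0.30 (adjusted p = 3.43e-05 by edgeR). It followed from 343, 338 and 324 normalized counts in Prep+/- M1 against 320, 315 and 339 in Prep-/- M1, which overlapped, where the M0 groups were far apart. Usp1 had 816, 859 and 755 against 864, 794 and 752 in M1, again overlapping, and an interaction of 1.45 ± 0.18 (adjusted p = 6.70e-05 by edgeR). For Blm, with 134, 121 and 124 against 150, 132 and 102 in M1, it was 1.99 ± 0.28 (adjusted p = 1.50e-04 by edgeR). For Atm, with 279, 228 and 240 against 303, 368 and 317, it was 1.66 ± 0.26 (adjusted p = 3.31e-04 by edgeR). The other 14 genes above 0 were Bard1, Brca1, Chek1, Chek2, Fancb, Fanci, Mre11a, Rad50, Rad51c, Rad54l, Rbbp8, Rmi2, Slx4 and Top3a, with interactions of 0.71 to 3.13.

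Most of the repair genes fell after LPS in Prep+/- cells. There 34 genes were lower in M1 than in M0 and 1 was higher, against 20.9% lower and 16.7% higher over all genes, with median log2 fold changes of -1.31 and -0.03. In Prep-/- cells 17 were lower and 3 higher, against 21.0% lower and 20.9% higher over all genes, with medians of -0.24 and 0.00. Without replicate 3 of Prep-/- M0, 16 were lower and 2 higher in Prep-/- cells. These 2 responses share no library, but each shares its M0 libraries with the knockout comparison in M0. Of the 45 genes, 16 fell after LPS in both genotypes, against 12.5% of all genes tested. Another 18 were lower in Prep+/- and not called in Prep-/-, against 7.82%.

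The Fanconi target genes fell furthest after LPS in the controls. Fancd2 went from 504, 518 and 636 normalized counts in Prep+/- M0 to 100, 94.0 and 57.7 in Prep+/- M1, a log2 fold change of -2.71 ± 0.34 (adjusted p = 5.22e-06 by edgeR). Fanci went to 74.1, 75.0 and 74.4, at -2.70 ± 0.30, Gen1 to 68.4, 67.8 and 61.6, at -2.62 ± 0.28, and Ube2t to 70.6, 88.0 and 97.5, at -2.56 ± 0.31 (adjusted p = 1.27e-06, 8.01e-07 and 3.80e-06 by edgeR). For all 4 the M1 libraries lay well below every M0 library. In Prep-/- cells Fancd2 still fell, to 30.8, 50.2 and 34.5 normalized counts, at -2.03 ± 0.37 (adjusted p = 1.84e-04 by edgeR), as did Rad51ap1, at -1.64 ± 0.36 (adjusted p = 8.77e-04 by edgeR). Both genes stood lowest of all in Prep-/- M1.

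Rmi2, Fanca and Slx4 rose after LPS in Prep-/- cells, and Rmi2 alone rose in Prep+/- cells. Rmi2 went from 75.2, 88.5 and 67.9 to 169, 206 and 158 normalized counts in Prep+/-, a log2 fold change of 1.20 ± 0.30 (adjusted p = 0.00329 by edgeR). In Prep-/- it went from 3.01, 0 and 4.88 to 27.5, 61.9 and 71.1, at 4.33 ± 0.51 (adjusted p = 1.82e-06 by edgeR), and the highest of these libraries was still below every Prep+/- M1 library. Fanca rose from 42.2, 98.3 and 63.5 to 320, 315 and 339 in Prep-/-, at 2.25 ± 0.22 (adjusted p = 3.02e-07 by edgeR). In Prep+/- cells it was not called, at -0.32 ± 0.20 (adjusted p = 0.191 by edgeR). Slx4 rose in Prep-/- to 345, 335 and 321, at 0.70 ± 0.18 (adjusted p = 0.00396 by edgeR), and without replicate 3 of Prep-/- M0 it was not called.

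**Figure D3:**
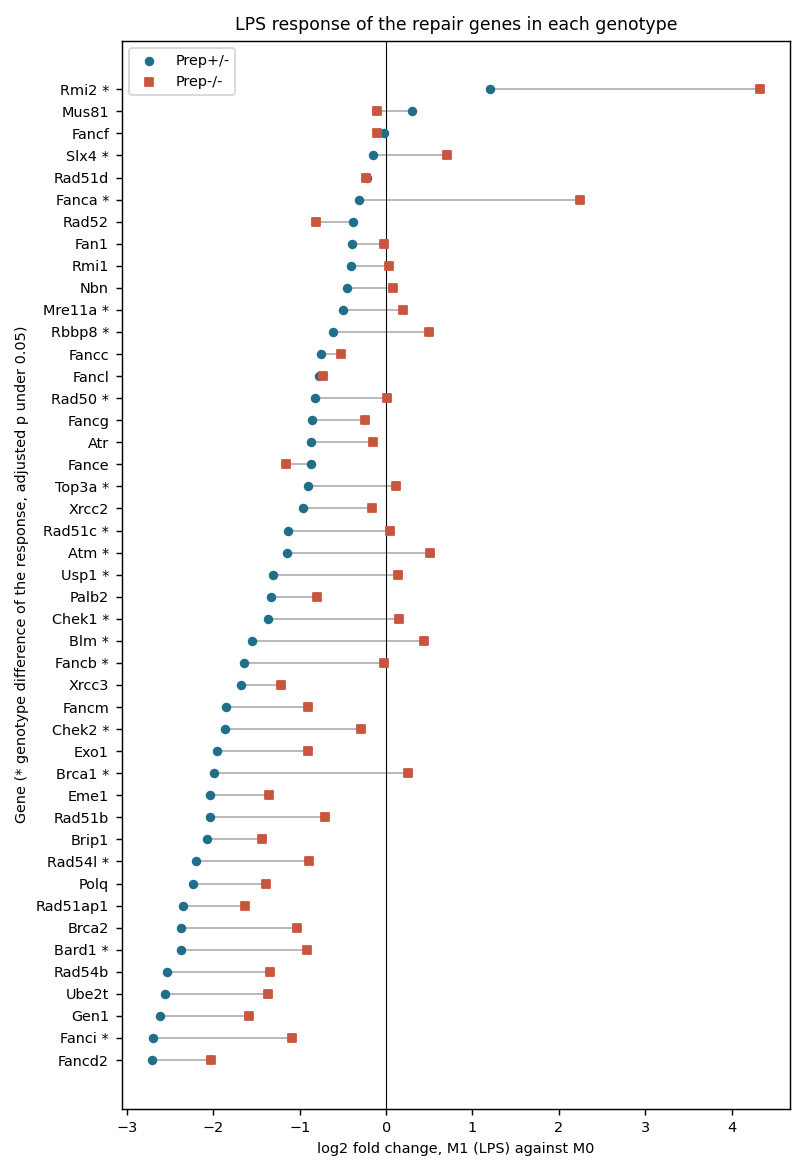
The log2 fold change of M1 against M0 is plotted for each of the 45 genes (rows, sorted by the Prep+/- value), with circles for Prep+/-, squares for Prep-/- and a line joining them. An asterisk marks the 18 genes whose response differed between genotypes at an adjusted p under 0.05, and in each of these the square lies to the right of the circle.

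Few of these genes were called after interleukin-4 with interleukin-13. In Prep+/- cells 1 gene, Rmi2, was higher in M2 than in M0 and 0 were lower, against 6.09% higher and 6.77% lower over all genes. There 11 genes differed at an unadjusted p under 0.05, and the share of all genes was not computed. The median log2 fold change was -0.37 over the 45 genes and -0.01 over all. DESeq2 called 1 higher and 0 lower, against 740 higher and 940 lower over all genes. Although none was called lower, 25 genes had every M2 library below every M0 library, against 23.3% of all genes. In Prep-/- cells 3 were higher and 2 lower, against 14.7% and 15.5% over all genes. Scaled by library totals alone, 2 were higher and 3 lower in Prep-/- and 1 higher and 1 lower in Prep+/-. Without replicate 3 of Prep-/- M0 it was 3 higher and 4 lower, and without replicate 1 of the same group 3 higher and 7 lower. Rmi2 reached 253, 249 and 233 normalized counts in Prep+/- M2, its highest level in any group, at 1.66 ± 0.30 against M0 (adjusted p = 8.40e-04 by edgeR). In Prep-/- M2 it reached 73.5, 68.8 and 100, at 4.92 ± 0.49 (adjusted p = 5.88e-07 by edgeR), beside 75.2, 88.5 and 67.9 in the unstimulated controls. Fanca rose in Prep-/- to 144, 176 and 136, at 1.15 ± 0.22 (adjusted p = 5.15e-04 by edgeR). The 2 genes that fell in Prep-/- were Rad51c, at -1.30 ± 0.29, and Palb2, to 56.4, 89.9 and 86.2, at -0.81 ± 0.19 (adjusted p = 0.00148 and 0.00221 by edgeR), and neither was called when only the compared libraries were fitted.

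The knockout effect in M2 minus that in M0 was above 0 for 3 genes and below 0 for 0, against 5.16% and 4.48% over all genes. These were Rmi2 at 3.26 ± 0.62, Fanca at 1.40 ± 0.30 and Usp1 at 0.70 ± 0.18 (adjusted p = 0.00437, 0.00888 and 0.0246 by edgeR). At an unadjusted p under 0.05 it was 11 genes, and the share of all genes was not computed. DESeq2 called 6 above and 1 below, against 973 above and 751 below over all genes. Without replicate 3 of Prep-/- M2 it was 3 above and 1 below, and without replicate 2 of Prep-/- M0 it was 6 above and 0 below. The call of Usp1 was lost in 8 of 20 alternative settings, with adjusted p up to 0.0746.

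**Figure D4:**
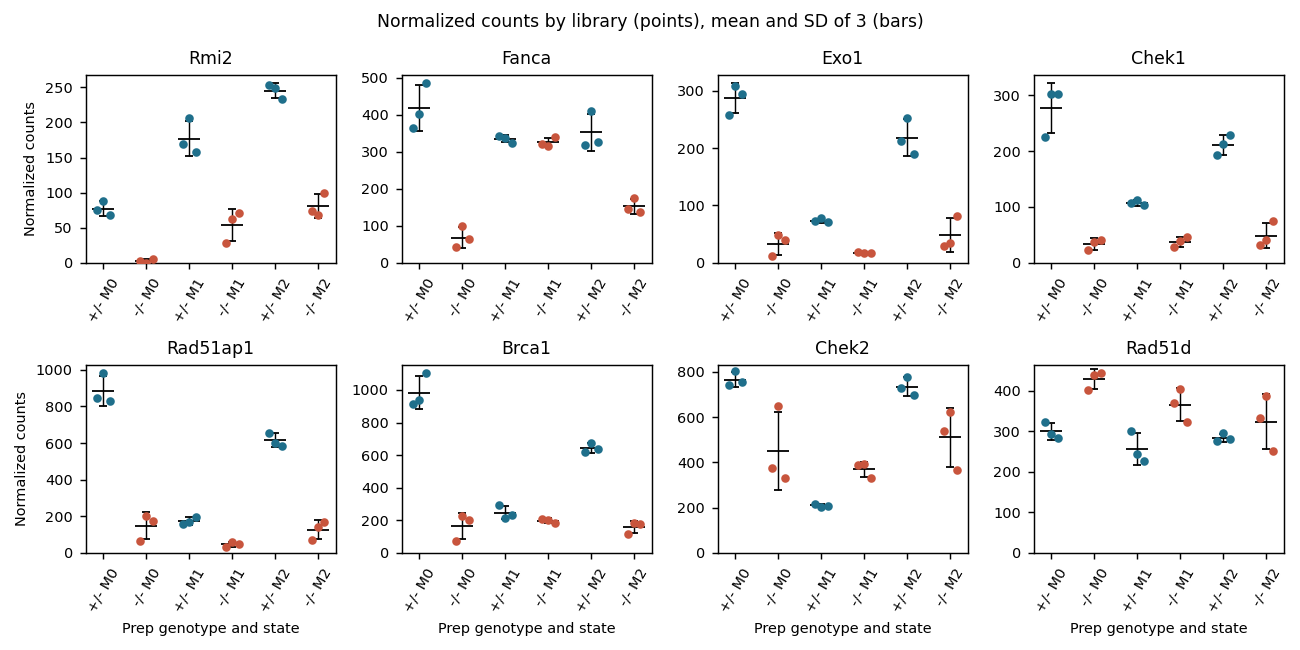
Normalized counts of 8 genes are plotted in every library (points), with the mean and SD of 3 (bars), for Prep+/- (blue) and Prep-/- (red) in M0, M1 and M2, each panel with its own axis from 0. The 2 genotypes stand apart in M0 for all 8 genes, they meet in M1 for Fanca, and Prep-/- lies above Prep+/- in M0 and M1 for Rad51d and in M1 for Chek2.

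The other genes of the pathway and of other repair pathways were set beside the 45. Over all genes tested, 17.2% were lower and 15.4% higher in Prep-/- M0, with a median log2 fold change of 0.02. Of 65 tested partners of recombination and Fanconi repair outside the 45, 28 (43.1%) were lower and 3 (4.62%) higher there. Their median log2 fold change was -0.39. Rpa1, encoding the largest subunit of the protein that coats single-stranded DNA, was lower by -1.67, and Sem1 and Swi5, small cofactors of recombination, were not called (0.38 and -0.27). Of 15 genes of non-homologous end joining, which seals breaks without a template, 4 (26.7%) were higher and 4 (26.7%) lower in Prep-/- M0, the median being 0.11. Xrcc6, encoding Ku70, was lower by -1.34, Dclre1c, encoding the nuclease Artemis, was higher by 1.69, and Trp53bp1 was not called (0.03). Of 19 nucleotide excision repair genes 4 (21.1%) were lower and 1 (5.26%) higher, with a median of -0.11. The lower share was near that of all genes. Of 27 genes of base excision and mismatch repair 14 (51.9%) were lower and 2 (7.41%) higher, with a median of -0.62. In M2 the same 4 lists had 22, 2, 0 and 7 genes lower (33.8%, 13.3%, 0% and 25.9%) and 1, 1, 0 and 0 higher. Over all genes tested, 9.82% were lower and 6.37% higher in M2. In M1 they had 11, 0, 1 and 2 lower (16.9%, 0%, 5.26% and 7.41%) and 3, 1, 2 and 3 higher (4.62%, 6.67%, 10.5% and 11.1%). Over all genes tested, 10.2% were lower and 12.3% higher in M1. Only the partners passed the all-gene share there, and only among the lower genes.

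Genes of DNA replication and cell division moved in the same comparisons. Of 40 S-phase genes, 40 were lower in Prep-/- M0, 38 in M2 and 32 in M1, with none higher and medians of -2.10, -1.72 and -1.18. Over all genes tested, 17.2%, 9.82% and 10.2% were lower in M0, M2 and M1. Of 30 mitosis genes, 28 were lower in M0, 28 in M2 and 11 in M1, with none higher. Mcm6, a subunit of the replicative helicase, fell by 2.69 on the log2 scale in M0, and Mki67, the gene of the proliferation antigen Ki-67, by 1.51. Of 19 genes for E2F and DREAM factors, which control cell cycle transcription, 10 (52.6%) were lower and 0 higher in M0. E2f1 fell by 0.81 in M0, and Rbbp4 and Rb1 were not called (-0.55 and 0.33). Of 21 genes often induced by p53, 5 (23.8%) were higher and 5 (23.8%) lower in M0, against 15.4% and 17.2% over all genes. Cdkn1a, encoding the cell cycle inhibitor p21, was not called in M0 (-0.46). After LPS, 38 S-phase (95.0%) and 29 mitosis genes (96.7%) were lower in Prep+/- cells, against 20.9% of all genes. In Prep-/- cells 10 (25.0%) and 29 (96.7%) were lower, against 21.0%. The S-phase count there was thus near the share of all genes. The part of this shift in the levels of the repair genes was not tested.

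The summed level of the 45 genes was 856 to 977 CPM in Prep+/- M0, 389 to 411 in Prep+/- M1 and 724 to 768 in Prep+/- M2. In Prep-/- it was 374 to 472, 371 to 391 and 383 to 443 CPM. The 9 Prep-/- libraries and the 3 Prep+/- M1 libraries thus lay in a narrow band from 371 to 472 CPM, well below the others. The 40 S-phase genes summed to 3457 to 3781 CPM in Prep+/- M0, 1402 to 1479 in M1 and 2906 to 3009 in M2, and to 608 to 1040, 836 to 888 and 954 to 1640 CPM in Prep-/-. Taken as a share of the S-phase sum, the repair genes came to between 24.5% and 28.6% in the 9 Prep+/- libraries and between 26.4% and 61.5% in the 9 Prep-/- libraries. The lowest Prep-/- share, 26.4%, was in replicate 3 of M2, the only Prep-/- library within the Prep+/- range, and the highest, 61.5% and 60.4%, were in replicates 1 and 2 of M0.

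**Figure D5:**
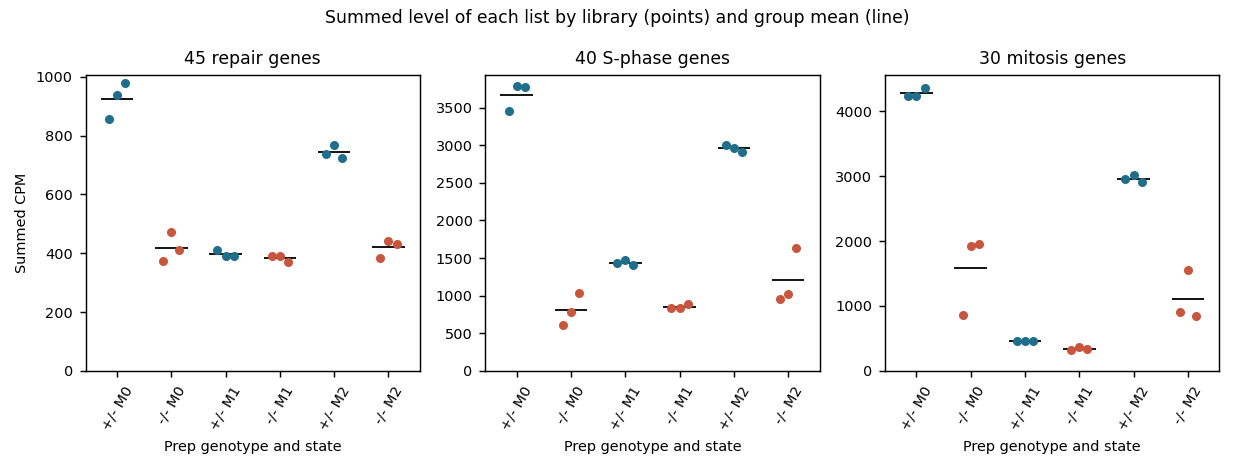
Summed CPM of the 45 repair genes, 40 S-phase genes and 30 mitosis genes is plotted in every library (points) with the group mean (line), blue for Prep+/- and red for Prep-/-. The repair sum is 856 to 977 CPM in Prep+/- M0 and 374 to 472 in Prep-/- M0, and all 3 sums are lower in Prep-/- than in Prep+/- in M0 and M2.

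Markers of macrophages and of other cell types also moved, both with genotype and with state. Over all genes tested, 15.4% were called higher and 17.2% lower in Prep-/- M0. The marker lists are short, so their counts compare only roughly with such shares. The 8 progenitor markers summed to 12.8 to 18.3 CPM in Prep+/- M0 and 3.37 to 4.10 in Prep-/- M0, with 1 of 3 tested called lower, Mecom at 0 in both and Gata1 at 0 in Prep-/- M0. The 12 granulocyte precursor markers summed to 36.5 to 48.8 CPM in Prep+/- M0 and 70.3 to 158 in Prep-/- M0, with 5 of 7 tested called higher and none at 0. The 5 B cell markers present summed to 3.01 to 4.92 and 9.08 to 11.9 CPM, with 2 of 2 tested called higher, and Cd79a, Ms4a1 and Ebf1 at 0 in Prep-/- M0. The macrophage sum was 18997 to 22403 CPM in Prep+/- M0 and 30377 to 48169 in Prep-/- M0, with 6 of 8 called higher.

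In M2 the progenitor sum was 8.96 to 9.35 CPM in Prep+/- and 4.33 to 5.15 in Prep-/-, with 1 of 3 called lower, and the macrophage sum was 10025 to 12200 and 13886 to 19562 CPM, with 2 of 8 called higher, both without overlap. Over all genes tested, 6.37% were called higher and 9.82% lower in Prep-/- M2. Mecom and Gata1 were at 0 in Prep+/- M2 and Hlf in Prep-/- M2. The granulocyte precursor sums overlapped there, at 27.6 to 32.7 and 31.8 to 49.2 CPM, with none of 7 called and Ly6g at 0 in both. In M1 the progenitor sum was 1.88 to 2.79 CPM in Prep+/- and 0.987 to 1.58 in Prep-/-, the granulocyte precursor sum 81.3 to 150 and 52.8 to 73.7, and the macrophage sum 45750 to 47201 and 30995 to 37037 CPM. All 3 sums were thus lower in Prep-/- M1 without overlap, with 1 of 3, 2 of 7 and 1 of 8 genes called lower and 1 macrophage marker called higher. Over all genes tested, 10.2% were called lower and 12.3% higher in M1, so the macrophage counts stood near those shares. The B cell sum was 2.24 to 3.03 CPM in Prep+/- M1 and 5.09 to 7.17 in Prep-/- M1, and it overlapped in M2, at 1.60 to 3.45 and 1.05 to 4.75 CPM.

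Set beside the M0 values, LPS in Prep+/- cells came with a lower progenitor sum (2 of 3 called lower) and with higher granulocyte precursor and macrophage sums (3 of 7 and 5 of 8 called higher), each without overlap. Over all genes tested, 20.9% were called lower and 16.7% higher after LPS in Prep+/-, and 21.0% and 20.9% in Prep-/-. In Prep-/- cells the progenitor sum was lower after LPS as well, without overlap (2 of 3 called lower), and the granulocyte precursor and macrophage sums overlapped those of M0 (5 of 7 called lower, and 3 of 8 higher with 1 lower). Hlf and Mecom were at 0 in M1 of both genotypes, and Gata1 in Prep-/- M1. Against M0, 3 of 8 macrophage markers were lower in Prep+/- M2 and 7 of 8 in Prep-/- M2, where 1 was higher. Over all genes tested, 6.77% were lower in Prep+/- M2, and 15.5% were lower and 14.7% higher in Prep-/- M2. Sums over stromal and dendritic cell markers did not exceed 21.5 and 2.64 CPM in any library. The part of these cells in the levels of the repair genes was not tested.

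The 45 genes lie on 15 chromosomes of the GRCm39 assembly (GENCODE annotation), and all are protein-coding. Examples are Brca1 at chr11:101379577-101442781 (minus strand), Rmi2 at chr16:10652911-10710830 (plus), Fanca at chr8:123993038-124045331 (minus), Exo1 at chr1:175708143-175741055 (plus) and Chek1 at chr9:36614487-36638361 (minus). For 16 of the 45, the gene body overlaps a protein-coding gene on the opposite strand, among them Fanca (with Zfp276), Fancd2 (with Emc3 and Fancd2os), Fanci (with Polg), Gen1 (with Smc6) and Palb2 (with Dctn5). The libraries were made with a stranded kit, but whether the counting used strand is not given in the sources used here, so it is not known whether reads of these genes and their partners were kept apart. Rmi2, Exo1, Chek1, Brca1, Blm and Usp1 have no such partner.

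The promoters of the 45 genes were searched for letters of known cell cycle elements, because E2F factors are known to drive genes of S phase. Sequences were taken from RefSeq (GRCm38.p6), from 250 bases before to 50 after each gene's start, each motif was searched on both strands, and 34 of the 45 genes matched. TTCCCGC, a core bound by E2F factors, was found in 14 of 34 (41.2%), against 9.91% of 9681 tested genes with a promoter. TTCCCGC or TTGGCGC, another E2F core, was found in 17 of 34 (50%), against 14.2% of tested genes and 7.79% of all 27025 genes in the promoter table. It was found in 14 of 26 repair genes that were lower in Prep-/- M0 (53.8%) and in 3 of 8 that were not called (37.5%). It was found in 18 of 32 S-phase genes (56.2%). TTTGAA, the element of late cell cycle genes, was found in 4 of 34 repair genes (11.8%), against 14.4% of tested genes and 64% of 25 mitosis genes. CCAAT was found in 20 of 34 (58.8%), against 43.2%. TTGGCGC may share its first 4 letters with CCAAT read on the other strand. A match of letters is a description and not a bound site.

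The stretch before the start of Ube2t is shown whole because it carried both E2F cores (capitals) in 119 bases that overlap no annotated exon. It lies at chr1:134890104-134890222 on the plus strand of GRCm39, and the cores begin at -159 and -127 from the start.
Ube2t: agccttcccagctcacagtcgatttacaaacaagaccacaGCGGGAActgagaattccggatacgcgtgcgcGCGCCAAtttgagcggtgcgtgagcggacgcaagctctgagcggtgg

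Windows of 29 bases around the core (capitals), which was the letters searched for, are printed to show the bases beside it in genes that were lower in Prep-/- M0, from several arms of the pathway. They are read on the strand of each gene and were placed on GRCm39 by exact match. TTCCCGC appears as GCGGGAA and TTGGCGC as GCGCCAA where the core lay on the other strand. They are from Bard1 (chr1:71142322-71142350, minus strand), Chek2 (chr5:110987686-110987714, plus), Brca2 (chr5:150445907-150445935, plus), Fancm (chr12:65122312-65122340, plus), Fancb (chrX:163763405-163763433, plus), Fancf (chr7:51512119-51512147, minus) and Rad51c (chr11:87295831-87295859, minus). Only the window of Bard1 among these 7 overlaps no annotated exon. Those of Chek2, Brca2, Fancm, Fancf and Rad51c overlap an exon of another gene (Hscb, Gm57319, Gm47870, Gas2 and Tex14), and that of Fancb overlaps an exon of Fancb itself.
Bard1: cgccgctcagtTTCCCGCtcaggaagttt
Chek2: cgggattagccGCGGGAAaccaagacgtc
Brca2: tttaggccacaGCGGGAAacagacacaca
Fancm: aaccaatcatcTTCCCGCcgcaaaatcgg
Fancb: ccggggtagagGCGGGAAtaagtgctctg
Fancf: gttcattttcaGCGCCAAtgtgccccgga
Rad51c: cgcgcgcgtggGCGCCAAccactccctac

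The same core stood in genes that were not called in any state, of which Fancg (chr4:43010335-43010363, minus strand) and Rad52 (chr6:119879516-119879544, plus) are shown for contrast. Both windows overlap an annotated exon of the gene itself, and that of Rad52 also one of 4930540M05Rik.
Fancg: ttcttttcagtTTCCCGCggaaccgtctc
Rad52: ttgctgcggctGCGGGAAggctgatcgcc
The letters were thus found both among genes that were lower in Prep-/- M0 and among genes that were not called.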

How the data were processed

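Poly(A) RNA of 18 BMDM cultures was sequenced by bulk RNA-seq with a stranded library kit. The authors trimmed reads with Trimmomatic 0.36, aligned them to GRCm39 with HISAT2 2.2.1.0 and counted them per gene with StringTie, and they deposited these counts unnormalized. The annotation release and whether the counting used strand are not given in the sources used here. Per the labels and the study's methods, the 6 groups are 2 genotypes in 3 states with 3 libraries each. From the deposited counts, edgeR 4.0.16 (R 4.3.3) kept 12021 of 16314 genes (filterByExpr), scaled by TMM and fitted all 18 libraries with 1 coefficient per group by its quasi-likelihood test, and Benjamini-Hochberg adjustment ran over all genes tested. The criteria, an adjusted p under 0.05 with a change of more than 1.5-fold (no fold criterion for interactions), follow the study, which used DESeq2. DESeq2 1.42.0, other scalings, filters, fits of the compared libraries alone, glmTreat and leaving out each library were alternatives. On simulated data for Prep-/- against Prep+/- in M0 (12021 genes, 200 changed), edgeR recovered 81% of 2-fold and 98% of 4-fold changes, and 5.79% of its 190 calls were false. DESeq2 recovered 83% and 98%, and 10.4% of its 202 calls were false. In the data far more genes were called in this comparison, 1848 higher and 2065 lower, and replicate 3 of Prep-/- M0 stood apart. The simulated shares therefore need not hold for the data.

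The 45 genes, the other gene lists and the tests were chosen with earlier results of these data known, so no test was run on a list as a whole. Values in every library are given, in each comparison, for up to 4 called genes with the largest log2 fold change (smallest adjusted p for interactions) if their mean reached 1 CPM, and for the gene with the most reads in each role group. Of other lists, at most the 3 genes with the most reads are named. A gene of the partner list is counted there and not reported by itself here. Genes listed by name without values only account for all 45. No promoter was matched for Xrcc2, Rad54b, Rad50, Rad51d, Fancd2, Rmi2, Usp1, Rbbp8, Exo1, Top3a and Nbn.

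Replicate numbers are shared between groups. The deviations of same-numbered libraries from their group means correlated above 0.1 for every number between the genotypes in M2 (0.249, 0.255 and 0.462) and between M0 and M1 of Prep-/- (0.201, 0.169 and 0.259), and in no other comparison. Any pairing there rests on these correlations and on the shared numbers, with nothing in the labels that ties the numbers to a mouse or a day. In M2, replicate 1 of Prep-/- also correlated with replicate 2 of Prep+/- (0.193), and replicate 2 with replicate 1 (0.154). The numbers are therefore not shown to match 1 to 1 in M2.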

Additional observations from a re-analysis of the deposited data

Results flagged for a closer look

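The knockout effect differed between M0 and M1 for 18 of the 45 genes by the edgeR interaction test at an adjusted p under 0.05, always with a higher value in M1. Over all genes tested, 13.7% had a higher and 10.9% a lower value in M1. The log2 differences of the 4 with the smallest adjusted p were 2.56 for Fanca, 1.45 for Usp1, 1.99 for Blm and 1.66 for Atm. Between M0 and M2 the knockout effect differed for 3 genes by the same test, with log2 differences of 3.26 for Rmi2, 1.40 for Fanca and 0.70 for Usp1. These 3 were 6.67% of the 45 genes, all higher in M2, beside 5.16% higher and 4.48% lower over all genes tested. No cause of these differences was tested.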

How the results depend on the processing

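Of 304 counts of called genes recomputed under the alternatives for 18 results, 281 stayed within 1.5 times the value given above. Of 540 values of single genes for 32 results, 527 kept their direction and call, 13 lost the call and none reversed. These 32 were picked for the largest called changes, or smallest adjusted p for interactions, which favours keeping the call. Among other calls, those of Gen1, Xrcc3 and Fancd2 in M1 were lost in 8, 7 and 6 of 16 settings. Prep-/- against Prep+/- in M0 gave 2 higher genes with no fold criterion and 0 to 1 when each library was left out in turn. In M1 glmTreat at a fold of 1.5 gave 1 higher and 4 lower, and leaving out single libraries gave 8 to 13 lower (8 without replicate 1 of Prep-/- M1). For M1 against M0 in Prep-/-, no fold criterion gave 5 higher and glmTreat 10 lower. For M2 against M0 in Prep+/-, 1 gene was lower with scaling by library totals, 4 with only the compared libraries and 5 with a replicate block in these. For M2 against M0 in Prep-/-, no fold criterion gave 5 higher and 4 lower, glmTreat 1 lower, the compared libraries alone 0 lower with or without the replicate block, and leaving out single libraries 2 to 5 higher (5 without replicate 2 of Prep-/- M0) and 2 to 7 lower. The interaction of M1 and M0 gave 0 to 1 below 0 when single libraries were left out (1 without replicate 2 of Prep-/- M0). The interaction of M2 and M0 gave 2 to 6 above and 0 to 1 below in the same way, and DESeq2 gave 6 and 1. With the replicate block over all libraries, 27 genes were lower in Prep-/- M2 and 18 in M1 against M0 of Prep-/- (28 and 17 in the compared libraries, where Fancm lost its call in the latter), and 34 in Prep-/- M0 (29 in the compared libraries). The block changed no other count of the comparisons whose same-numbered libraries correlated above 0.1. Scaling by library totals moved the all-gene median (log2 fold change) from -0.03 to -0.50 for M1 against M0 in Prep+/- (1052 higher and 4995 lower over all genes, against 2011 and 2518), where 42 of the 45 were lower, from 0.00 to -0.26 in Prep-/- (1709 and 3681, against 2518 and 2530), from 0.02 to -0.13 for the knockout in M0 (1338 and 2664, against 1848 and 2065), from 0.03 to -0.12 in M2 (497 and 1613, against 766 and 1181) and from 0.04 to 0.24 for the interaction of M1 and M0 (2477 and 768, against 1644 and 1312). For the other changes of count the cause was not tested. The low reads of Rmi2 in Prep-/- M0 (0 to 5) limit the size of its fold changes.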
